A study of Homo sapiens with 27 samples.

Results

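SLCO4A1, NNMT, NDP, IGFBP1 and DHRS11 are 5 of the 11963 genes measured in MDA-MB-231, a mesenchymal cell line from a human breast cancer, and were chosen by how low they were after treatment with 5SGlcNAc. They were read from 6 of the 22277 probe sets, those whose platform annotation names 1 of them and no other gene; NNMT has 2 probe sets and each of the others has 1. Cells were treated with 5SGlcNAc at 50 µM, with Thiamet-G at 25 µM or with the vehicle DMSO, and total RNA was hybridised to Affymetrix arrays. The study has 27 arrays: 1 per treatment at 0, 2, 4, 6, 8 and 24 h, and 3 per treatment at 48 h. All groups share the line, the medium and the serum, and no allele or genotype differs between them. Each value is a log2 expression level per probe set, so a difference of 1 is a doubling.

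O-GlcNAc is a single sugar that O-GlcNAc transferase (OGT) attaches to serine and threonine residues of nuclear and cytosolic proteins and that O-GlcNAcase (OGA) removes. 5SGlcNAc is taken up and converted by the cell into an inhibitor of OGT, and Thiamet-G inhibits OGA, so the pair push the modification in opposite directions. SLCO4A1 encodes OATP4A1, a plasma membrane carrier that takes up thyroid hormones, prostaglandins and steroid conjugates. NNMT, nicotinamide N-methyltransferase, moves a methyl group from S-adenosylmethionine to nicotinamide. NDP encodes norrin, a secreted ligand that binds the receptor FZD4 with LRP5 and TSPAN12 and activates beta-catenin, best known in retinal vessels. IGFBP1 is a secreted binding protein for insulin-like growth factors, and in liver its transcription is repressed by insulin through FOXO factors. DHRS11 is a cytosolic short-chain dehydrogenase/reductase that acts on steroids.

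The genes lie on 5 chromosomes. In GRCh38.p14 SLCO4A1 is at chr20:62642503-62690740, NNMT at chr11:114257806-114313536, NDP at chrX:43948776-43973390, IGFBP1 at chr7:45888488-45893660 and DHRS11 at chr17:36591879-36600804. The RefSeq promoter table matched 1 of the 5 genes, DHRS11. The 250 bases before its start are shown because its promoter was searched for 9 motifs, which are listed below. They lie at chr17:36591629-36591878 on the plus strand, and no base is in capitals because no motif matched.
DHRS11: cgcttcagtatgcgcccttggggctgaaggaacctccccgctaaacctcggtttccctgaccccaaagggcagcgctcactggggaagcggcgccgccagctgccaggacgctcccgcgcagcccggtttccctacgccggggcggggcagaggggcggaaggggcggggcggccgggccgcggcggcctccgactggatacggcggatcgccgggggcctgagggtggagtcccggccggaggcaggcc
The window searched held these bases and the 50 that follow, with a GC content of 74.3%. None of the 9 motifs was found there on either strand. They were the antioxidant response element core TGACNNNGC, held by 13.3% of the 35116 promoters in the table, the AP-1 motif TGANTCA (7.71%), the FOXO motif TGTTTAC (3.42%), part of the insulin response element, CAAAACA (4.92%), the STAT motif TTCNNNGAA (7.66%), the E-box CACGTG (7.26%), the hypoxia response element core ACGTG, which the E-box contains (21.4%), the ATF4 composite motif TGATGNAA (3.62%) and the TATA box TATAAA (11.5%). A missing match says only that these letters are not in this window.

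The 9 arrays of 48 h had medians between 7.68 and 7.76 and values of 2 decimals, and the 18 arrays of 0 to 24 h had medians between 7.43 and 7.53 and values of 6 decimals. The sets were therefore kept apart, except in the fit that set the effect of Thiamet-G at 48 h beside that over 2 to 24 h. No level was compared across the sets. The lowest correlation between arrays was 0.997 at 48 h and 0.994 at 0 to 24 h, and no array columns were identical. The difference between the 3′ and 5′ probe sets of ACTB, a sign of RNA quality, was 0.15 to 0.39 at 48 h and 0.42 to 1.64 at 0 to 24 h. For GAPDH it was 0.11 to 0.27 at 48 h and 0.14 to 0.27 at 0 to 24 h. By mean level at 48 h, the markers of the labelled line stood at percentiles 84.5 to 99.9 of the 11963 genes (7 of 8 measured), with VIM at 99.9. Haematopoietic markers stood at 4.6 to 43.8 (7 of 8 measured), fibroblast markers at 11.5 to 60.7 (6 of 6) and luminal markers at 3.7 to 98.7 (12 of 12), with PGR at 3.7, ESR1 at 35.9 and KRT18 at 98.7. The 5 genes were ranked on another scale, among all 22277 probe sets within each single array. There SLCO4A1 stood between 74.5 and 91 over the 27 arrays and IGFBP1 between 82.1 and 92.4. NNMT stood between 63.2 and 84.8 at its brighter probe set and DHRS11 between 52.4 and 67.6. NDP was dim, at percentiles 12 to 35.6, and it alone of the 5 was below a limit set at the 40th percentile. Whether the arrays of 48 h came from separate cultures is not said in the labels, so their spread, and each p-value that rests on it, may be only technical.

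At 48 h all 5 genes were lower with 5SGlcNAc than with Thiamet-G or DMSO, from 2.71-fold below DMSO for SLCO4A1 to 1.43-fold for DHRS11. The genes were chosen for low 5SGlcNAc values, which may include these, so the values are given as a description, with no test. Among 11963 genes ranked from the lowest difference against DMSO, SLCO4A1 was 1st, NNMT 3rd, NDP 4th, IGFBP1 20th and DHRS11 96th. All 5 were thus toward the low end, with SLCO4A1, NNMT and NDP furthest and DHRS11 least far. AGR2 (-1.30, rank 2) and APOBEC3G (-1.09, rank 5) stood beside SLCO4A1, NNMT and NDP and are not among the 5. Against Thiamet-G, IGFBP1 ranked 5th.

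SLCO4A1, the carrier, had levels of 9.89, 10.16 and 10.07 with 5SGlcNAc, 11.49, 11.56 and 11.61 with Thiamet-G, and 11.48, 11.49 and 11.47 with DMSO at 48 h. The 5SGlcNAc arrays were all at least 1.31 under the others, and the Thiamet-G and DMSO arrays touched at 11.49. Its difference was -1.44 ± 0.066 (SE, n = 3 per treatment) from DMSO and -1.51 from Thiamet-G. NNMT, the methyltransferase, had levels of 9.18, 9.48 and 9.54 with 5SGlcNAc, 10.76, 10.79 and 10.66 with Thiamet-G, and 10.58, 10.58 and 10.53 with DMSO. Here the 3 treatments did not overlap: the 5SGlcNAc arrays were lowest, the DMSO arrays in the middle and the Thiamet-G arrays highest. The difference of NNMT was -1.16 ± 0.085 (SE) from DMSO and -1.34 from Thiamet-G. Its second probe set read 8.51, 8.43 and 8.48 with 5SGlcNAc, 9.52, 9.58 and 9.33 with Thiamet-G, and 9.29, 9.33 and 9.29 with DMSO. Both probe sets were lowest with 5SGlcNAc, but the second gave smaller differences, -0.83 from DMSO and -1.003 from Thiamet-G, and its lowest Thiamet-G array equalled the highest DMSO array.

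NDP, the norrin gene, had levels of 5.15, 4.91 and 5.20 with 5SGlcNAc, 6.14, 6.12 and 6.05 with Thiamet-G, and 6.08, 6.31 and 6.18 with DMSO. The 5SGlcNAc arrays were at least 0.85 under both other treatments, whose arrays overlapped. Its difference was -1.10 ± 0.083 (SE) from DMSO and -1.02 from Thiamet-G, at a probe set near the dim end of the array. IGFBP1, the binding protein, had levels of 10.54, 10.65 and 10.54 with 5SGlcNAc, 11.83, 11.56 and 11.69 with Thiamet-G, and 11.38, 11.35 and 11.25 with DMSO. No treatments overlapped, and the order was 5SGlcNAc, DMSO and Thiamet-G from low to high. The difference of IGFBP1 was -0.75 ± 0.071 (SE) from DMSO and -1.12 from Thiamet-G. DHRS11, the dehydrogenase, had levels of 8.01, 7.89 and 8.28 with 5SGlcNAc, 8.45, 8.43 and 8.43 with Thiamet-G, and 8.49, 8.68 and 8.56 with DMSO. The 5SGlcNAc arrays were lowest again, with a gap of 0.15 between the highest of them and the lowest Thiamet-G array. Its difference was -0.52 ± 0.091 (SE) from DMSO and -0.38 from Thiamet-G.

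**Figure D1:**
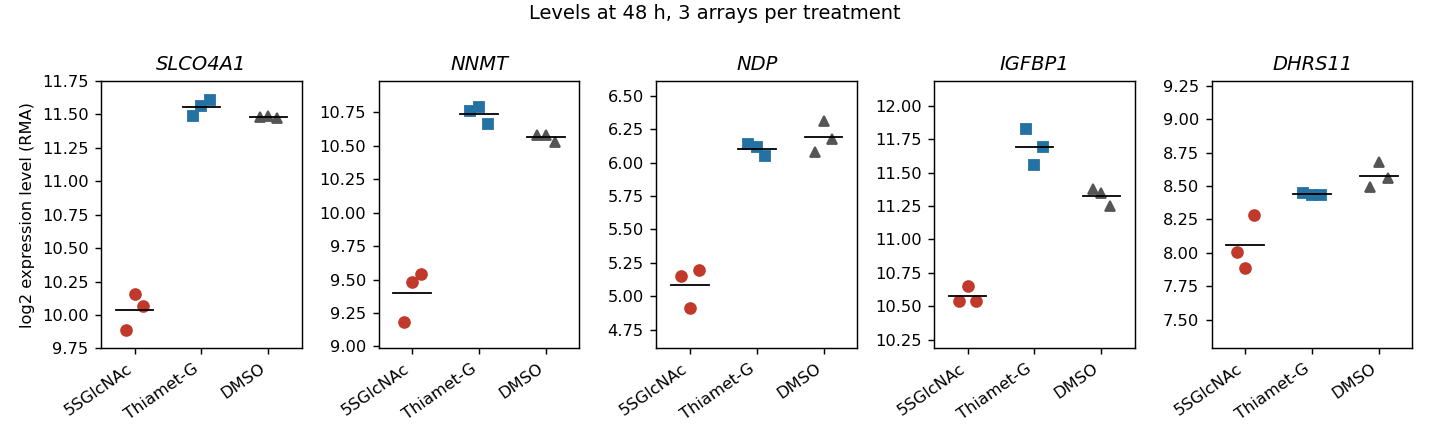
Levels of the 5 genes at 48 h on the log2 scale, 1 point per array and a bar at the mean of 3 arrays, with panels of equal height in log2 units. Every 5SGlcNAc array lies under every Thiamet-G and DMSO array, and for IGFBP1 and NNMT every Thiamet-G array lies over every DMSO array. NNMT is shown at its brighter probe set only.

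In 5 of the 5 genes all 5SGlcNAc arrays lay under every Thiamet-G and DMSO array, an arrangement that 9.87% of all genes showed. Past an adjusted p of 0.05 (limma with Benjamini-Hochberg adjustment over all genes) stood 10.2% of genes for 5SGlcNAc against DMSO and 13.7% for 5SGlcNAc against Thiamet-G at 48 h, the 5 genes among them in both. The genes were chosen for low 5SGlcNAc values, so nothing is read from these counts. Of the 1225 genes called against DMSO, 876 were lower with 5SGlcNAc, which is 71.5%. With quantile scaling of the arrays 60% of the called genes were lower, and with median centring 58.7%. The median of all genes moved by less than 0.1 under either scaling.

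Thiamet-G, which acts on the opposing enzyme, moved 1 of the 5 genes past the threshold at 48 h. The comparison of Thiamet-G with DMSO uses the same arrays as the 48 h contrasts with 5SGlcNAc. Those may have served in choosing the genes, so this comparison is not taken as independent of that choice. IGFBP1 averaged 11.69 ± 0.14 with Thiamet-G and 11.33 ± 0.068 with DMSO (SD, n = 3 each). It rose by 0.37 ± 0.071 (SE), which is 1.29-fold, with an adjusted p of 0.0263. The call was lost, at an adjusted p of 0.0736, when the 5SGlcNAc arrays did not share in the estimate of the spread. It was also lost without Thiamet-G replicate 1 (difference 0.30, adjusted p = 0.0718) or 3 (0.0824), and without DMSO replicate 1 (0.0614), 2 (0.0751) or 3 (0.105). In all, 3.49% of genes were called in this comparison, and of these 417 genes 57 were higher and 360 lower. With median centring 74.5% of the calls were lower and with quantile scaling 73.6%, against 86.3% as deposited. The rise of IGFBP1 was thus in the less common direction.

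The remaining genes did not pass in that comparison. NNMT averaged 10.74 ± 0.068 with Thiamet-G and 10.56 ± 0.029 with DMSO (SD, n = 3 each), a difference of 0.17 (95% interval -0.02 to 0.37, adjusted p = 0.297). NNMT and IGFBP1 were the 2 genes with every Thiamet-G array over every DMSO array, an arrangement of 6.37% of all genes. For NNMT this held at the brighter probe set, while at the second the lowest Thiamet-G array equalled the highest DMSO array. SLCO4A1 differed by 0.07 (interval -0.08 to 0.22, adjusted p = 0.582), NDP by -0.09 (-0.27 to 0.10, 0.604) and DHRS11 by -0.14 (-0.34 to 0.06, 0.433).

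Over 0 to 24 h, where each treatment has 1 array at each time, SLCO4A1, NNMT, NDP and DHRS11 were low with 5SGlcNAc at 24 h, and IGFBP1 was not. SLCO4A1 had levels of 10.87, 10.71, 10.59, 10.30, 10.43 and 9.57 at 0, 2, 4, 6, 8 and 24 h with 5SGlcNAc. With Thiamet-G it had 10.76, 10.74, 10.49, 10.56, 10.55 and 10.77, and with DMSO 10.81, 10.66, 10.63, 10.33, 10.31 and 10.64. The 5SGlcNAc array of 24 h was the lowest of the 18, and the difference from DMSO was -1.07 at 24 h, a level 2.10-fold lower, but only -0.04 to 0.12 at 0 to 8 h. DHRS11 showed the same step: its 5SGlcNAc levels ran from 8.74 to 9.05 at 0 to 8 h and stood at 7.92 at 24 h. Its levels were 8.61 with Thiamet-G and 8.77 with DMSO at 24 h, so that its difference from DMSO was -0.85 there and -0.03 to 0.19 earlier. DHRS11 was 10th lowest of all genes in that comparison of single arrays, against 96th at 48 h.

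NNMT stood at 8.56 with 5SGlcNAc, 9.43 with Thiamet-G and 9.03 with DMSO at 24 h. The 5SGlcNAc array was again lowest, by 0.47 under DMSO and 0.87 under Thiamet-G, after differences from DMSO of -0.14 to 0.18 at 0 to 8 h. The second NNMT probe set read 8.03, 8.57 and 8.39 in the same order and differed by -0.36 from DMSO. NDP stood at 4.91 with 5SGlcNAc, 5.99 with Thiamet-G and 5.91 with DMSO at 24 h. Its difference from DMSO was -1.001 there, after differences of -0.39 to 0.32 at 0 to 8 h. IGFBP1 did not share the step. Its levels were 10.79, 10.67, 10.65, 10.44, 10.39 and 10.36 over 0 to 24 h with 5SGlcNAc, and 10.60, 10.66, 10.51, 10.43, 10.30 and 10.35 with DMSO. The curves of 5SGlcNAc and DMSO ran beside each other, with 5SGlcNAc higher by 0.01 to 0.20 at 0 to 8 h and by only 0.005 at 24 h. With Thiamet-G IGFBP1 had 10.63, 10.86, 10.70, 10.59, 10.82 and 10.81, above both other treatments at every time after 0 h.

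**Figure D2:**
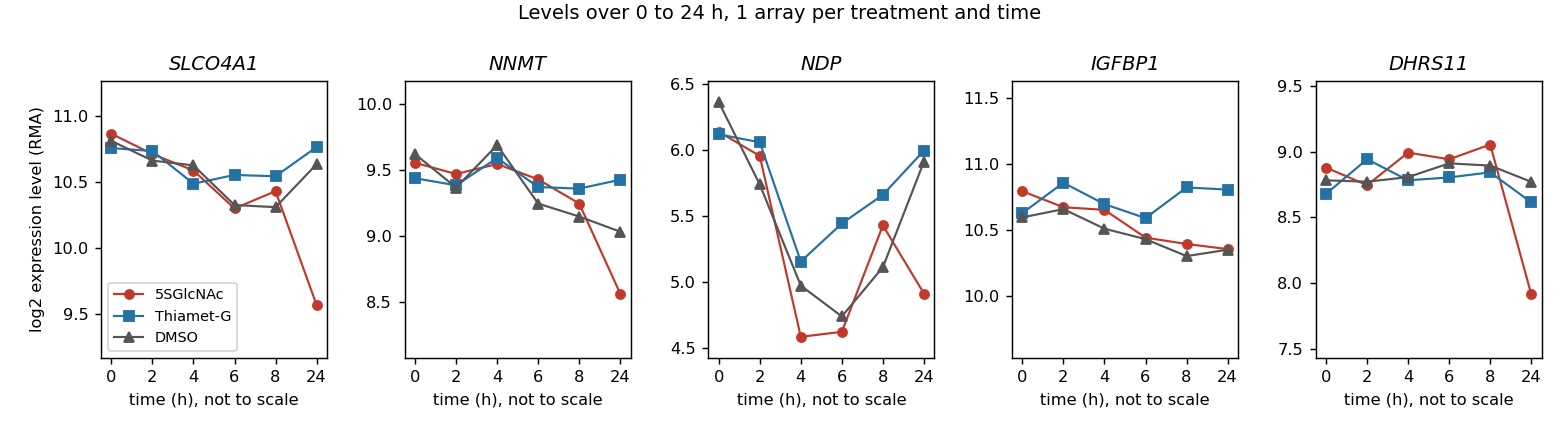
Levels of the 5 genes on the log2 scale at 0, 2, 4, 6, 8 and 24 h (times evenly spaced, not to scale), 1 array per point and a line per treatment, with panels of equal height in log2 units. SLCO4A1, NNMT, NDP and DHRS11 are lowest with 5SGlcNAc at 24 h, NDP dips at 4 and 6 h in all 3 series, and IGFBP1 with 5SGlcNAc runs beside DMSO.

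Counted as more than 1.5-fold below DMSO in single arrays, SLCO4A1, NDP and DHRS11 (3 of the 5) were low with 5SGlcNAc at 24 h, where 0.719% of all genes were. None of the 5 passed that fold at 0, 2, 4, 6 or 8 h, where 0.0585%, 0.1%, 0.109%, 0.0836% and 0.0251% of genes did. SLCO4A1 and DHRS11 were also the 2nd and 4th lowest of the 5981 genes above the median level at 24 h. These 24 h values may have served in choosing them and are given without a test. Over 2 to 24 h with time as a block, the mean difference of 5SGlcNAc from DMSO was -0.19 for SLCO4A1, -0.05 for NNMT, -0.19 for NDP, 0.05 for IGFBP1 and -0.10 for DHRS11. None of the 5 was called, and limma called 0 of all genes (0%), with 524 at an unadjusted p under 0.05 and 0 with a trended, robust variance. Without the arrays of 24 h the mean was 0.03 for SLCO4A1, 0.06 for NNMT, 0.01 for NDP and 0.09 for DHRS11, so that the lower means rest on that time.

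**Figure D3:**
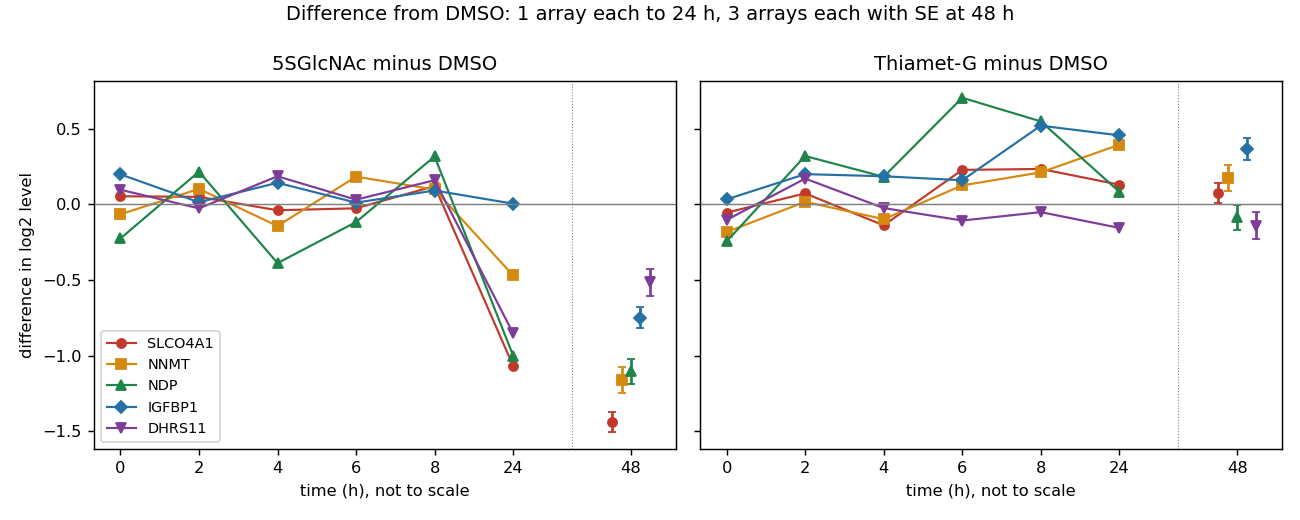
Difference from DMSO in log2 level for 5SGlcNAc (left) and Thiamet-G (right), from single arrays at 0 to 24 h and from 3 arrays per treatment at 48 h with the standard error (times not to scale, the dotted line parts the array sets). With 5SGlcNAc, SLCO4A1 is at -1.07 at 24 h and -1.44 at 48 h, while IGFBP1 is at 0.00 at 24 h and -0.75 at 48 h.

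Thiamet-G against DMSO over 2 to 24 h uses none of the arrays of 48 h. Its arrays are, however, those that 5SGlcNAc was set against at these times. Those differences may have served in choosing the genes, so this comparison is not taken as independent of that choice. IGFBP1 was higher with Thiamet-G at 5 of 5 times, by 0.20, 0.19, 0.16, 0.52 and 0.46 at 2, 4, 6, 8 and 24 h, and by 0.03 at 0 h. Its mean difference of 0.30 ± 0.064 (SE, 5 times) had an unadjusted p of 0.000372 and an adjusted p of 0.222 in limma, so it did not pass. With a trended, robust variance it passed, at an adjusted p of 0.0193. With 1 array per treatment and time, the times stand in for replicates in this comparison. Its SE and p-values thus measure how the difference varied over the times, not between repeated arrays. NDP was also higher with Thiamet-G at 5 of 5 times, by 0.08 to 0.71, with a mean difference of 0.37 ± 0.15 (SE, adjusted p = 0.477). An excess of Thiamet-G at all 5 times was seen in 4.61% of genes. The means of SLCO4A1 (0.11), NNMT (0.13) and DHRS11 (-0.03) did not pass either, and in total 0 genes (0%) did, with 1111 at an unadjusted p under 0.05 and 20 called with the trended, robust variance. The effect of Thiamet-G differed between 48 h and 2 to 24 h for 0 of all genes in limma. The closest of the 5 was NDP, with -0.09 at 48 h and 0.37 over 2 to 24 h (difference -0.45 ± 0.21, SE, unadjusted p = 0.0481, adjusted p = 0.767).

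Set against Thiamet-G over 2 to 24 h, 5SGlcNAc gave a mean difference of -0.25 ± 0.064 (SE) for IGFBP1, lower at 5 of 5 times. The gene was chosen for low 5SGlcNAc values, which may include the array of 24 h used here, so this is a description with no test. The single differences of IGFBP1 in this pair were -0.19, -0.04, -0.15, -0.43 and -0.45 from 2 to 24 h, after 0.17 at 0 h. NDP was lower at 5 of 5 times, with a mean of -0.56, rank 3 among the genes lower at every time, and is likewise given without a test. None of the 5 genes was called, and 0.259% of all genes were. The means of SLCO4A1 (-0.30), NNMT (-0.18) and DHRS11 (-0.07) were of changing sign over the times.

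NDP also changed with time in all 3 series. Its levels at 0, 2, 4, 6, 8 and 24 h were 6.14, 5.95, 4.58, 4.62, 5.43 and 4.91 with 5SGlcNAc. With Thiamet-G they were 6.12, 6.06, 5.15, 5.44, 5.66 and 5.99, and with DMSO 6.36, 5.74, 4.97, 4.74, 5.11 and 5.91. In each series the lowest level was at 4 or 6 h. At 24 h the change of NDP from 0 h was -1.23 with 5SGlcNAc, -0.12 with Thiamet-G and -0.45 with DMSO. The fits against 0 h include the 5SGlcNAc arrays, whose low NDP values may have served in choosing the gene. They are therefore not independent of that choice. With the 3 series as a block, NDP fell against 0 h by 1.31 on the log2 scale at 4 h (SE 0.20, adjusted p = 0.00318), by 1.27 at 6 h (0.00421) and by 0.81 at 8 h (0.0294). The falls at 4 and 6 h were the 2nd lowest and the lowest differences of all genes, dim ones included. NDP was itself dim in those arrays, at percentiles 12 to 21.9 of the probe sets. The difference was -0.29 at 2 h (adjusted p = 0.919) and -0.60 at 24 h (0.0777), which did not pass. All 3 calls depended on single series: without the DMSO series the adjusted p was 0.115, 0.152 and 0.206 at 4, 6 and 8 h. Without the 5SGlcNAc series it was 0.0608 at 4 h and 0.0532 at 8 h, and without the Thiamet-G series 0.119 at 8 h. The 3′ to 5′ difference of ACTB was also highest at 4 h, at 0.89 with 5SGlcNAc, 1.24 with Thiamet-G and 1.64 with DMSO, against at most 0.95 at the other times. That of GAPDH was not raised at 4 h, at 0.14, 0.23 and 0.23 in the same order, against 0.17 to 0.27 at the other times. The part of RNA quality in the low NDP levels was not tested.

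The comparisons of 24 h with 0 h include the 24 h array of 5SGlcNAc, whose values may have served in choosing the genes, so they are not independent of that choice. NNMT passed there, with a difference of -0.53 (SE 0.14, adjusted p = 0.0268) and with changes of -0.99 in the 5SGlcNAc, -0.01 in the Thiamet-G and -0.59 in the DMSO series. The 5SGlcNAc and DMSO series were both lower at 24 h than at 0 h. The call was lost without the 5SGlcNAc series (-0.30, adjusted p = 0.255) or the DMSO series (-0.50, 0.209). At this brighter probe set the Thiamet-G series alone stood near its level of 0 h. The second NNMT probe set changed by -0.74 in the 5SGlcNAc, -0.11 in the Thiamet-G and -0.32 in the DMSO series. SLCO4A1 (-0.49, adjusted p = 0.131), DHRS11 (-0.35, 0.193) and IGFBP1 (-0.17, 0.316) did not pass at 24 h. IGFBP1 did pass without the Thiamet-G series, at -0.34 with an adjusted p of 0.0417. Among all genes 9.97% were called at 24 h, 6.36% at 8 h, 4.49% at 6 h, 3.28% at 4 h and 0.51% at 2 h. Of the 5, the called ones were NNMT at 24 h, NDP at 8, 6 and 4 h, and none at 2 h.

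The levels of the 5 genes went together across arrays at 48 h more closely than at 0 to 24 h. The correlation of NNMT with SLCO4A1 was 0.99 over the 9 arrays of 48 h and 0.79 over the 18 arrays of 0 to 24 h. Between NDP and DHRS11 it was 0.94 and -0.00, and between IGFBP1 and DHRS11 0.72 and 0.17. At 48 h the points share 3 treatments, and the genes were chosen for the same low treatment, so high values there follow from the choice. The genes whose levels most resembled each of the 5, by the smaller of the 2 correlations, differed from gene to gene. For SLCO4A1 they were CTDSP1 (0.96 at 48 h, 0.95 at 0 to 24 h), a phosphatase of RNA polymerase II, LYPD1 (0.92 and 0.92) and ADAM8 (0.98 and 0.91), a membrane metalloprotease. For NNMT they were S100A6 (0.96 and 0.92) and S100P (0.95 and 0.89), calcium-binding proteins, with TNFSF10 (0.94 and 0.90), the death ligand TRAIL. For NDP they were SH3TC2 (0.96 and 0.90), CCRL2 (0.96 and 0.90) and CNIH3 (0.94 and 0.90). IGFBP1 had INPP4B (0.93 and 0.83), a phosphoinositide phosphatase, TM4SF1 (0.91 and 0.83) and CLEC2B (0.96 and 0.81), and DHRS11 had STC1 (0.91 and 0.87), ASF1B (0.89 and 0.86), a histone chaperone, and HBP1 (0.86 and 0.85). These correlations are descriptions over arrays that share treatments and times.

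The other genes in the pathways of the 5 were described by list at 48 h, beside a share of 10.2% called and a median difference of 0.01 over all genes for 5SGlcNAc against DMSO. Most calls over all genes were in the lower direction, 71.5% of them as deposited, so a list with mostly lower calls does not stand apart by that. Of 9 other OATP transporters, 0 were called, and their median was -0.01 as deposited and 0.02 with quantile scaling. SLCO3A1 differed by -0.03 (adjusted p = 0.917). Of 35 other genes of nicotinamide, NAD and methyl donor metabolism, 0 rose and 3 fell, with a median of 0.05, a count near the 10.2% of all genes and so no result about the list. They included NNT, the mitochondrial transhydrogenase (-0.39, adjusted p = 0.00334), and NMNAT2, which makes NAD (-0.41, 0.00389). AOX1, the aldehyde oxidase that can oxidise the product of NNMT, fell as well (-0.26, 0.0311, but 0.0648 with median centring). With Thiamet-G the differences from DMSO were -0.19 for NNT, -0.25 for NMNAT2 and 0.09 for AOX1, none of them called. NAMPT, which makes the nicotinamide mononucleotide for NAD, differed by -0.09, and MAT2A and AHCY, which make S-adenosylmethionine and clear its product, by -0.04 and 0.09, none of them called.

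Of 22 other genes of norrin and canonical Wnt signalling, 0 rose and 2 fell, with a median of -0.06, again near the 10.2% of all genes called. LRP5, the norrin co-receptor, fell by 0.30 on the log2 scale (adjusted p = 0.0346, but 0.0599 with quantile scaling), and LGR4, a receptor for R-spondins, by 0.31 (0.0304). FZD4, the receptor itself, differed by -0.12 (adjusted p = 0.35), and TSPAN12, its partner, by 0.27 (0.091), which passed with quantile scaling (0.0448). For Thiamet-G against DMSO 0 of the 22 were called, beside 3.49% of all genes.

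Of 22 other genes of the IGF axis, 0 rose and 5 fell, with a median of -0.05, beside 10.2% of all genes called and 71.5% of those calls lower. PAPPA, a protease that cleaves IGFBP4 and so frees IGF, averaged 6.89 ± 0.19 with 5SGlcNAc and 7.86 ± 0.026 with DMSO (SD, n = 3 each), a difference of -0.97 (adjusted p = 0.000193), although its second probe set differed by -0.17. IGFBP4, its substrate, fell by 0.61 (adjusted p = 0.00103), and STC1, a secreted glycoprotein that inhibits PAPPA, fell by 0.63 (0.000193). STC1 was also the gene most like DHRS11 in its pattern. HTRA1, a secreted protease, fell by 0.24 (0.0236) and IGFBP3 by 0.19 (0.0261), whereas IGF1R (-0.06), IGF2R (0.02) and IGFBP6 (-0.11) were not called. With Thiamet-G, where 3.49% of all genes were called, 1 of the 22 was, STC1, at -0.23 (adjusted p = 0.0485), and it was not called under either scaling. The others that fell with 5SGlcNAc stood at -0.21 (HTRA1), -0.24 (IGFBP4), -0.02 (PAPPA) and 0.06 (IGFBP3) with Thiamet-G against DMSO. HTRA1 differed by only -0.03 between 5SGlcNAc and Thiamet-G (adjusted p = 0.74).

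FOXO factors and insulin-repressed targets, the list nearest to the known control of IGFBP1 in liver, had 0 rises and 3 falls among 19 other genes, with a median of -0.06, beside 10.2% of all genes called. CCNG2, an atypical cyclin, fell by 0.61 (adjusted p = 0.002), TXNIP, the thioredoxin-interacting protein, by 0.21 (0.00755) and CAT, the catalase, by 0.22 (0.0154, while its other probe sets ran from -0.15 to 0.18). FOXO1 itself differed by -0.06 (0.424), and with Thiamet-G (3.49% of all genes called) the single call was CITED2, a transcriptional co-regulator, at 0.42 (0.0129). Among 32 other short-chain dehydrogenases/reductases 2 rose and 5 fell, with a median of -0.02 that turned to 0.01 with median centring, beside the same 10.2%. DHRS2 averaged 8.14 ± 0.072 with 5SGlcNAc and 9.18 ± 0.13 with DMSO (SD, n = 3 each) and fell by 1.04 (adjusted p = 0.000128), with -0.35 at its second probe set. HSD17B8 fell by 0.59 (0.00451), CBR3 by 0.25 (0.00769) and HSD17B12 by 0.24 (0.00708). With Thiamet-G, HSD17B8 differed from DMSO by -0.33, CBR3 by -0.01, HSD17B12 by -0.09 and DHRS2 by -0.11, none of them called. CBR1, a carbonyl reductase, and DHRS7B each rose by 0.20, whereas HSD17B14 (0.06) and DCXR (-0.003) were not called. DCXR, the xylulose reductase, was 1 of 3 genes of that list called lower with Thiamet-G (-0.24, 0.0305; 3.49% of all genes were called), a call that quantile scaling (0.0509) and median centring (0.0653) ended.

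**Figure D4:**
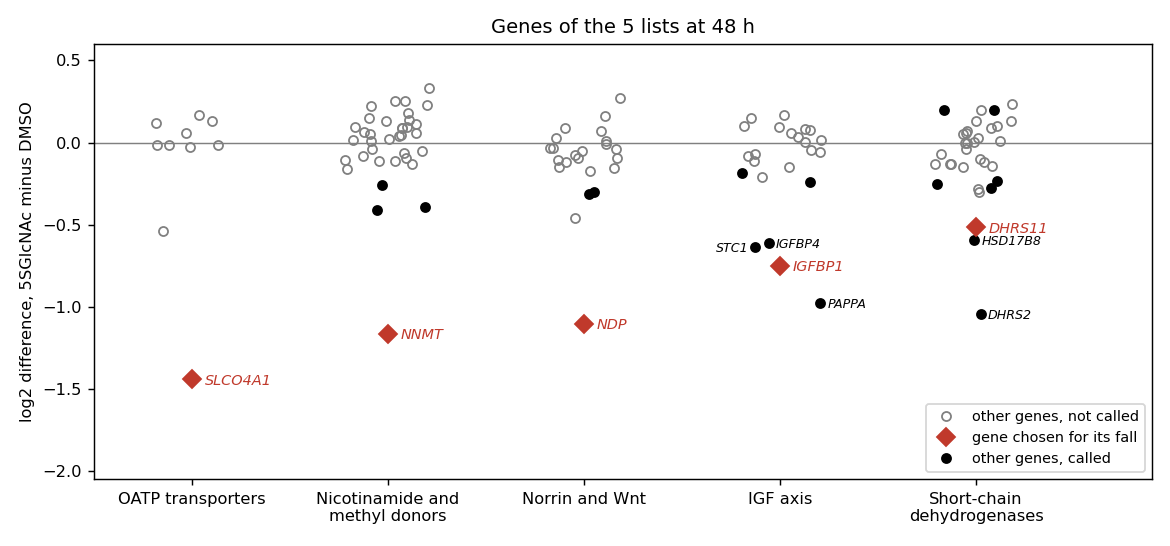
Differences between 5SGlcNAc and DMSO at 48 h (log2, 3 arrays each) for the genes of 5 lists, with called genes filled and uncalled genes open, spread sideways for visibility only. The red diamonds are the 5 genes chosen for low values with 5SGlcNAc, and each lies under most of its list, with DHRS2 and PAPPA as other low points.

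Markers of other cell types were read in the same comparison of 5SGlcNAc with DMSO, in which 10.2% of all genes were called, 876 of 1225 of them lower. Of 12 luminal markers 3 fell, AGR2 by 1.30, KRT19 by 0.42 and CDH1 by 0.29, and of 6 fibroblast markers 1 fell, LUM by 0.49. The calls of CDH1 and LUM were lost with median centring (adjusted p = 0.0677 and 0.0641). Of 7 haematopoietic markers 0 were called, and of 7 markers of the labelled line 1 fell, PLAU, a secreted protease, by 0.55. The part of these markers in the levels of the 5 genes was not tested, and a smaller share of some cells cannot be told from less RNA per cell in bulk RNA.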

How the data were processed

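The authors deposited log2 levels, 1 per probe set and array, which RMA produced per the submitters' processing notes (version not given in the sources used here). Because RMA forces arrays processed together to 1 distribution, a shift common to most genes would not be seen. Of 22277 probe sets, 62 were controls and 19070 named 1 gene, of which 19058 were matched to current symbols by Entrez identifier in the RefSeq gene table of GRCh38.p14. Where a gene had several probe sets, the brightest on average in a fit stood for it, which left 11963 genes, dim ones included. The moderated test of limma 3.58.1 (lmFit, eBayes; R 4.3.3) was two-sided, and p-values were adjusted over all genes by the Benjamini-Hochberg method with a threshold of 0.05. The 9 arrays of 48 h shared 1 fit. The 15 arrays of 2 to 24 h were fitted with time as a block, and changes against 0 h used 18 arrays with the treatment series as a block. In these fits the times or the series stood in for replicates, so their p-values do not measure the spread between repeated arrays. To compare the effect of Thiamet-G between 48 h and 2 to 24 h, those 9 and 15 arrays were put into 1 fit. Single arrays had no test. The number of arrays limits the precision.

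The members and the lists were chosen with earlier results of these data known. The genes named are the 5, the 3 most like each by the smaller of the correlations over both array sets, up to 4 called genes per list with the smallest p, and fixed partners. CITED2, CBR1, DHRS7B, the values of list genes under Thiamet-G, and the genes beside the 5 in rank were named after their values were seen. Replicate numbers at 48 h gave no sign of pairing the arrays. Same-numbered arrays had correlations of -0.33 to 0.17 between their deviations from the group means, and different-numbered arrays -0.25 to 0.25. With 3 arrays per treatment this cannot settle whether they were paired. Alternatives were other scaling, a filter on the dimmest 40% of genes, other variance models, other probe set rules, fewer groups, and fits that left out 1 array, 1 time or 1 series. Scripts were tested on simulated data.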

Additional observations from a re-analysis of the deposited data

Results flagged for a closer look

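The difference of IGFBP1 between 5SGlcNAc and DMSO had opposite signs in the array sets. At 48 h it was lower than with DMSO in every array, with a difference of -0.75, whereas over 2 to 24 h its mean difference from DMSO was 0.0531, with 5SGlcNAc higher at 5 of 5 times. The difference between the sets was not tested, and the mean over 2 to 24 h was smaller than its standard error of 0.064 and was not called. The excess was already 0.20 at 0 h, and with that subtracted the mean over 2 to 24 h was -0.15, the same sign as at 48 h.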

How the results depend on the processing

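Of 634 values of the 5 genes recomputed under the alternatives, 604 kept their direction and call or moved by less than 1 SD. Every 48 h difference of the 5 genes with 5SGlcNAc kept its sign under the 14 alternatives run (13 for NDP, which the dim filter removes), from -1.50 to -1.37 against DMSO for SLCO4A1 and from -0.63 to -0.43 for DHRS11. With the mean of its probe sets NNMT was at -0.997 against DMSO and -1.17 against Thiamet-G. IGFBP1 with Thiamet-G against DMSO at 48 h stayed at 0.37 but lost its call with only the arrays of those groups (adjusted p = 0.0736) and with the replicate block (0.0614), and ran from 0.30 to 0.43 when single arrays were left out. The replicate numbers gave no sign of pairing the samples, and with the replicate block 186 genes were called in that comparison, against 417 without it.

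Leaving out single times gave means over 2 to 24 h for 5SGlcNAc against DMSO of -0.27 to 0.0265 for SLCO4A1, -0.10 to 0.0604 for NNMT, -0.32 to 0.00709 for NDP and -0.17 to 0.0876 for DHRS11, each positive without 24 h. DHRS11 against Thiamet-G ran from -0.14 to 0.0905. With the difference at 0 h subtracted, IGFBP1 was at -0.15 against DMSO and -0.42 against Thiamet-G. The contrast with Thiamet-G, read without a test, was at -0.25 both without dim genes and with the trended, robust variance. Under that variance Thiamet-G against DMSO passed at 0.30. Leaving out single series gave, against 0 h, -0.0291 to 0.15 for IGFBP1 and -0.0720 to 0.13 for DHRS11 at 2 h, -0.34 to -0.0334 for IGFBP1 and -0.79 to -0.30 for NNMT at 24 h, and -1.47 to -1.18, -1.57 to -1.10 and -0.98 to -0.58 for NDP at 4, 6 and 8 h.

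Counts of called genes moved more. At 48 h, leaving out single arrays gave 679 to 984 for 5SGlcNAc against DMSO, 926 to 1937 against Thiamet-G (1069 with only those groups) and 101 to 683 for Thiamet-G against DMSO, which had 235 with median centring, 949 without dim genes, 925 with the trended, robust variance and 129 with only those groups. Over 2 to 24 h, Thiamet-G against DMSO had 10 without dim genes and 20 with the trended, robust variance. For 5SGlcNAc against Thiamet-G the counts were 166, 180, 9 with the 0 h arrays, 5 with only those treatments and 0 to 9 without single times, against 31. Against 0 h, the dim filter and the trended, robust variance gave 101 and 92 at 2 h, 870 and 852 at 6 h and 1205 and 1184 at 8 h. Without single series the counts were 0 to 28 at 2 h, 0 to 151 at 4 h, 3 to 104 at 6 h, 1 to 112 at 8 h and 266 to 426 at 24 h. The cause of these changes was not tested, beyond the fewer arrays or genes in a fit. The 1 array per treatment and time before 48 h and the dim NDP probe set limit what can be seen.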
